A study of Mus musculus with 6 samples.

Results

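Mirtrons are miRNAs whose precursor hairpin is a whole short intron, and 6 hairpins annotated in such introns were followed in adult mouse hippocampus after the loss of Dicer1: miR-877, miR-1224, miR-702, miR-1981, miR-3102 and miR-6944. The members are the rows of the deposited small RNA count tables that carry one of these names, 14 rows of 2035 mature miRNA rows and of 109108 features in all. The set was chosen by name with its measured counts in these same libraries known, in which miR-3102, miR-6944 and miR-877 were lower in Dicer1-ifKO than in WT. The difference between the genotypes is therefore given here as a description of the members. The calls that the fit of all features made among them are counted beside the share over all rows, and no p-value of a member is used as support.

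The Dicer1-ifKO group held 3 libraries from mice with the genotype Dicer1 flox/flox and the CaMKIIa-creERT2 transgene, and the WT group 3 libraries from Dicer1 flox/flox mice without it. All mice were C57BL/6 males of 3 months that had been given tamoxifen, the drug that activates creERT2, 3 weeks earlier. Each library was made from total hippocampal RNA pooled from 3 mice. The labels call the pools biological replicates and state that recombination was checked by qRT-PCR. The targeted gene could not be checked here: the whole Dicer1 span (chromosome 12, 104687742 to 104751952) held 37, 32 and 35 counts in Dicer1-ifKO replicates 1, 2 and 3, and 45, 33 and 47 in WT replicates 1, 2 and 3, which overlap and do not resolve the floxed part. The CaMKIIa promoter is active in excitatory forebrain neurons, so interneurons, glia and vessel cells of the dissected hippocampus are not its target and keep their Dicer1. In such bulk RNA, fewer cells of a type and less of a miRNA per cell cannot be told apart.

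In the canonical pathway the nuclear enzyme Drosha, with its partner Dgcr8, cuts a hairpin out of a primary transcript, and Dicer1 then removes the loop in the cytoplasm. A mirtron skips the first cut. The spliceosome releases the intron as a lariat, the debranching enzyme Dbr1 opens it, and the linear intron folds into a hairpin that is exported and cut by Dicer1 like any other precursor. The 5p arm of a mirtron thus begins at the 5′ splice site, and the 3p arm ends at or near the 3′ splice site. Both classes are Dicer1 substrates.

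The gene models showed this arrangement for all 6 hairpins, and for miR-3102 and miR-6944 as much as for the rest. Only the place was examined, and whether the hairpins are made without Drosha was not tested. In GENCODE M21 (GRCm38) each hairpin lay on the strand of its host gene, in an intron of 82 to 104 nt. Of 224057 distinct introns of protein-coding transcripts, 5.69% were 104 nt or shorter, and their median length was 1445 nt. The first base of a 5p row was the first base of the intron in 6 of 6 hairpins. Counted over the rows of both arms, 6 of the 14 member rows started there. Of the 2021 other miRNA rows of both arms, 19 did so (0.94%, introns of up to 200 nt). As the members were chosen as miRNAs of such introns, this difference follows from the choice and is not read as a result. The 3p row ended on the last base of the intron for miR-6944 and miR-1224, 1 nt before it for miR-877 and miR-3102, and 2 nt before it for miR-702 and miR-1981. The annotated hairpin spanned the intron exactly in 5 cases. That of miR-702 began 9 nt upstream, in the exon before it.

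The host introns belong to genes of unrelated functions. miR-6944 (chromosome 13, 55477681 to 55477776, minus strand) is an intron of 96 nt of Dbn1, which encodes drebrin, an actin-binding protein of dendritic spines. miR-3102 (chromosome 7, 100882306 to 100882409, minus strand) is an intron of 104 nt of Arhgef17, a guanine nucleotide exchange factor. This intron lies inside an exon of 1 further transcript, Arhgef17-203, annotated as retaining it. miR-877 (chromosome 17, 35960730 to 35960814, minus strand) is an intron of 85 nt of Abcf1, an ATP-binding protein of translation initiation. miR-1224 (chromosome 16, 20604452 to 20604536, plus strand) is an intron of 85 nt of Vwa5b2. miR-702 (chromosome 5, 136991433 to 136991541, plus strand) overlaps an intron of 102 nt of Plod3, a lysyl hydroxylase of collagen. miR-1981 (chromosome 1, 184822407 to 184822488, minus strand) is an intron of 82 nt of Marc2, a mitochondrial reductase that the count tables list under its older symbol Mosc2.

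**Figure D1:**
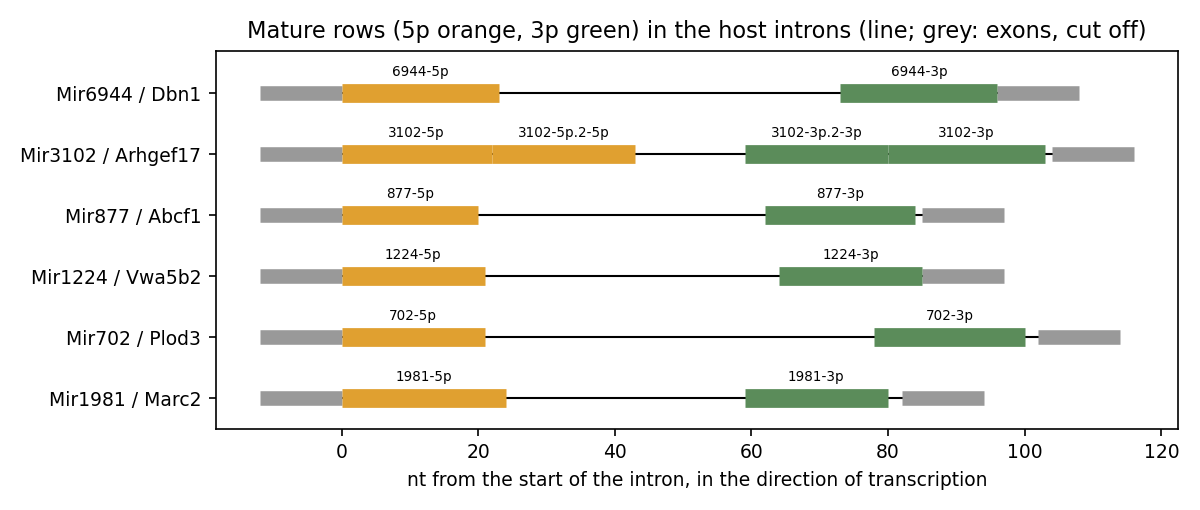
Position of the 14 mature rows in the host introns of the 6 hairpins, drawn to scale in nt from the start of each intron (line) in the direction of transcription, with 5p rows in orange, 3p rows in green and the adjoining exons cut off in grey. Every hairpin has a 5p row that starts with the intron, and the 3p rows end 0 to 2 nt before its end, apart from the inner 3p row of miR-3102.

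The hairpins show the splice sites in their sequence. The following 3 precursors, from RefSeq (GRCm38.p6), are shown because both arms or the host span of each enter the results; capitals mark the 2 mature arms, the first letters GU are the 5′ splice site and the last letters AG the 3′ splice site.
Mir6944 (chr13:55477681-55477776, minus strand): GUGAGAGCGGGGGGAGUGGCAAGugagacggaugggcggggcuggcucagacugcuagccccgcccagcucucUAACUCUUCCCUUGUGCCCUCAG
Mir877 (chr17:35960730-35960814, minus strand): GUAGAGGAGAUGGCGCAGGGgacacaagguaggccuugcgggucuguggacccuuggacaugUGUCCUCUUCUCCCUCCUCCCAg
Mir1224 (chr16:20604452-20604536, plus strand): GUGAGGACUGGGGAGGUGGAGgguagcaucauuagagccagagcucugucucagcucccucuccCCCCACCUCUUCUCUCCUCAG

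All 14 mature sequences were found in the RefSeq table, at the positions of the deposited rows. They are printed for the rows the results turn on and for the 1 pair that shares a seed, with the seed (bases 2 to 8 from the 5′ end) in capitals.
miR-6944-3p: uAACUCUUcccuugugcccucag
miR-3102-3p: gAGCACCCcauuggcuacccaca
miR-3102-3p.2-3p: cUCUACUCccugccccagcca
miR-3102-5p.2-5p: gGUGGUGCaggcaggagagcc
miR-877-5p: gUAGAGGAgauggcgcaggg
miR-877-3p: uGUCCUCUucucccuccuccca
miR-1224-5p: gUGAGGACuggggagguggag
miR-1224-3p: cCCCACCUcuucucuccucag
miR-702-3p: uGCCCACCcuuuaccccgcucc
miR-1981-5p: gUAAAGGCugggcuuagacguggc
miR-1981-3p: cAUCUAACccuggccuuugac
miR-702-5p: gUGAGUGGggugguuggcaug
miR-3102-5p: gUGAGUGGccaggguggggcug

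The pair miR-702-5p and miR-3102-5p shared a seed with each other and with no other miRNA among the 1603 of 1900 names that the RefSeq table holds. The seeds of the other 12 rows were found in no second miRNA. Of the 7 member rows from a 5p arm 6 started with GU, against 31 of 654 other 5p miRNAs (4.74%), and 4 started with GUGAG, against 10 of 654 (1.53%). The 6 are the rows that start with the intron, so their GU follows from the choice of members and is not read as a result. The 3p rows were rich in pyrimidines, as is usual before a 3′ splice site, with a median of 76.2% C or U over 7 rows against 59.1% over 667 other 3p miRNAs. Their 5p partners had a median of 28.6%, against 45.5% in other 5p miRNAs. The median GC content of the 14 rows was 63.5%, against 52.2% in 1589 other miRNAs.

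These miRNAs were scarce in the hippocampus. The 14 rows held 956, 1233 and 1130 counts in Dicer1-ifKO replicates 1, 2 and 3, and 1990, 2317 and 1918 counts in WT replicates 1, 2 and 3. They made up 0.0412%, 0.0450% and 0.0474% of the miRNA counts in Dicer1-ifKO, and 0.0730%, 0.0802% and 0.0603% in WT. The groups did not overlap in this share, although some miR-3102 reads enter it more than once. All miRNA rows held 2318205 to 2739366 counts per Dicer1-ifKO library and 2724752 to 3179363 per WT library. Of the 14 rows, 11 passed the filter on low counts and 3 did not. miR-702-5p had 2 counts over the 6 libraries, miR-3102-5p 1 and miR-6944-5p 1. The row miR-3102-5p.2-5p passed the filter only through its WT libraries, so it could hardly pass without a difference.

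Levels are given as CPM, counts scaled to the summed counts of the tested features of a library after TMM normalization, and the rows are all 20 to 24 nt long. miR-6944-3p was the most abundant member in both genotypes, at rank 202 of 546 tested miRNA rows. In Dicer1-ifKO it was followed by miR-1981-5p (3.14 CPM), then by 6 rows with means of 2.21 to 1.82 CPM (miR-877-5p, miR-877-3p, miR-1981-3p, miR-3102-3p, miR-1224-3p and miR-1224-5p) in which each overlapped its neighbour in the order. miR-3102-3p.2-3p (1.44) came next, within the wide range of miR-1224-3p and apart from the other 5 of these rows. miR-702-3p (0.473) and miR-3102-5p.2-5p (0.0686) were the lowest in Dicer1-ifKO, and each lay apart from the row above it. In WT the order after miR-6944-3p was miR-877-5p (4.96 CPM), miR-3102-3p (4.82), miR-877-3p (3.54), miR-3102-3p.2-3p (3.53), miR-1981-5p (3.48), miR-1224-5p (2.67) and miR-1981-3p (2.44). The ranges of the first 5 of these overlapped, as did those of miR-1224-5p and miR-1981-3p. miR-1224-3p (1.30), miR-702-3p (0.747) and miR-3102-5p.2-5p (0.308) were the lowest in WT, and each lay apart from the row above it.

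**Figure D2:**
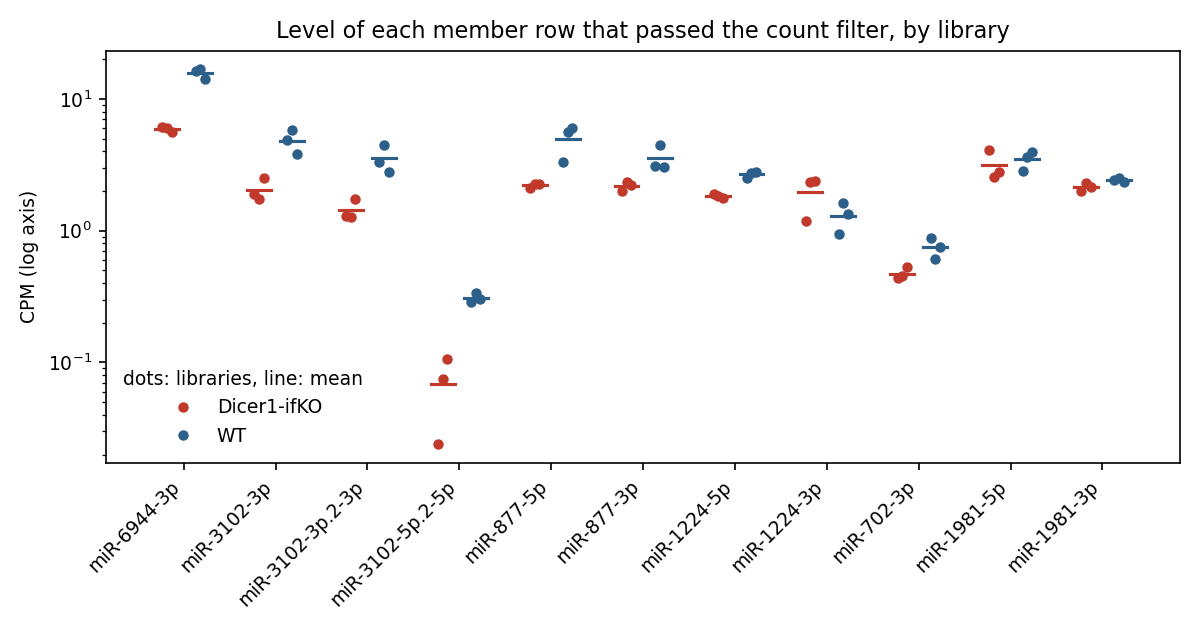
CPM on a log axis of the 11 member rows that passed the count filter, with a dot for each of the 3 Dicer1-ifKO libraries (red, left) and 3 WT libraries (blue, right) and a line at the mean. The dots of the genotypes are apart for 9 rows and overlap for miR-1224-3p and miR-1981-5p.

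The single largest contributor, miR-6944-3p from the drebrin gene, was lower in every Dicer1-ifKO library. It had 253, 320 and 265 counts in Dicer1-ifKO replicates 1, 2 and 3, and 791, 799 and 658 in WT replicates 1, 2 and 3. The highest Dicer1-ifKO count was thus below the lowest WT count. Its level averaged 5.92 ± 0.24 CPM in Dicer1-ifKO and 15.7 ± 1.34 CPM in WT (SD, n = 3 each), a ratio of 0.378 and a log2 change of -1.40 ± 0.16 (SE). The opposite arm, miR-6944-5p, was seen once in all 6 libraries, so nearly every read of this hairpin came from the 3p arm that abuts the 3′ splice site.

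The miR-3102 hairpin gave a similar difference. It is unusual in that the annotation lists an outer and an inner product on each arm, end to end. The outer row, miR-3102-3p, had 79, 93 and 117 counts in Dicer1-ifKO replicates 1, 2 and 3, and 238, 278 and 176 in WT replicates 1, 2 and 3. The inner row, miR-3102-3p.2-3p, had 54, 68 and 81 counts in Dicer1-ifKO replicates 1, 2 and 3, and 162, 214 and 130 in WT replicates 1, 2 and 3. Both rows were lower in each Dicer1-ifKO library than in any WT library. Their log2 changes were -1.23 ± 0.21 and -1.30 ± 0.22 (SE, n = 3 each). These are not separate values: the rows adjoin without sharing a base, yet the miR-3102 rows summed to more than the Arhgef17 span around them in every library. At least 27, 38 and 43 reads in Dicer1-ifKO and at least 106, 153 and 89 in WT, replicates 1, 2 and 3, were therefore counted in more than 1 row. The inner row held 0.68 to 0.73 of the count of the outer row in Dicer1-ifKO and 0.68 to 0.77 in WT.

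On the 5p side of miR-3102 only the inner product was detected in more than 1 library. miR-3102-5p.2-5p had 1, 4 and 5 counts in Dicer1-ifKO replicates 1, 2 and 3, and 14, 16 and 14 in WT replicates 1, 2 and 3. At this depth the log2 change of -2.08 has an SE of 0.46. Since the row passed the filter only through WT, its place at the low end of the tested rows is not read as a result.

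miR-877, the mirtron of Abcf1, was lower on both arms. Its 5p row had 88, 120 and 106 counts in Dicer1-ifKO replicates 1, 2 and 3, and 162, 266 and 279 in WT replicates 1, 2 and 3. Its 3p row had 83, 124 and 105 counts in Dicer1-ifKO replicates 1, 2 and 3, and 152, 214 and 141 in WT replicates 1, 2 and 3. Neither arm overlapped between the genotypes. The 5p level averaged 2.21 ± 0.08 CPM in Dicer1-ifKO and 4.96 ± 1.45 CPM in WT, and the 3p level 2.19 ± 0.17 CPM in Dicer1-ifKO and 3.54 ± 0.81 CPM in WT (SD, n = 3 each). The log2 changes were -1.16 ± 0.22 for the 5p arm and -0.69 ± 0.20 for the 3p arm (SE). WT replicate 1 had the lowest 5p level of its group.

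The arms of miR-1224 differed in opposite directions. The 5p row had 78, 97 and 83 counts in Dicer1-ifKO replicates 1, 2 and 3, and 123, 130 and 129 in WT replicates 1, 2 and 3. It averaged 1.82 ± 0.06 CPM in Dicer1-ifKO and 2.67 ± 0.14 CPM in WT (SD, n = 3 each), without overlap. The 3p row had 49, 124 and 111 counts in Dicer1-ifKO replicates 1, 2 and 3, and 46, 77 and 62 in WT replicates 1, 2 and 3. It averaged 1.96 ± 0.67 CPM in Dicer1-ifKO and 1.30 ± 0.34 CPM in WT, with overlap, because Dicer1-ifKO replicate 1 lay within the WT range. The log2 changes were -0.55 ± 0.17 for the 5p arm and 0.60 ± 0.29 for the 3p arm (SE), and miR-1224-3p was the only tested member above 0.

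The arm shares set this out within each library, free of the scaling. The 5p arm took 61.4%, 43.9% and 42.8% of the miR-1224 counts in Dicer1-ifKO replicates 1, 2 and 3, with Wilson 95% intervals of 52.7% to 69.4%, 37.5% to 50.5% and 36.0% to 49.8%. In WT replicates 1, 2 and 3 it took 72.8%, 62.8% and 67.5%, with intervals of 65.6% to 78.9%, 56.0% to 69.1% and 60.6% to 73.8%. These intervals cover counting error only. The groups did not overlap, but the highest Dicer1-ifKO share lay close to the lowest WT share. The mean difference of -18.3 percentage points ranked 2 by size among 138 miRNAs with both arms tested. In 32.6% of those 138 the 5p shares of the groups did not overlap, in one direction or the other. The 138 are not all separate, which limits the rank and this percentage. For example, the 5p shares of miR-126a and miR-126b mirrored each other, at 70.5% and 29.5% in Dicer1-ifKO replicate 1. For miR-877 the 5p share was 51.5%, 49.2% and 50.2% in Dicer1-ifKO replicates 1, 2 and 3, and 51.6%, 55.4% and 66.4% in WT replicates 1, 2 and 3, so WT replicate 1 all but met the Dicer1-ifKO libraries. For miR-1981 the mean share was 58.8% in Dicer1-ifKO and 58.5% in WT, with overlap.

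miR-702 and miR-1981 complete the set. miR-702-3p had 18, 24 and 25 counts in Dicer1-ifKO replicates 1, 2 and 3, and 43, 29 and 35 in WT replicates 1, 2 and 3. Its levels did not overlap, and the log2 change was -0.66 ± 0.24 (SE). miR-1981-5p had 169, 136 and 131 counts in Dicer1-ifKO replicates 1, 2 and 3, and 139, 172 and 185 in WT replicates 1, 2 and 3. miR-1981-3p had 83, 123 and 100 counts in Dicer1-ifKO replicates 1, 2 and 3, and 119, 121 and 109 in WT replicates 1, 2 and 3. The 5p levels of the groups overlapped. The 3p levels were apart by a small margin, at 2.15 ± 0.16 CPM in Dicer1-ifKO and 2.44 ± 0.09 CPM in WT (SD, n = 3 each). The log2 changes were -0.15 ± 0.22 and -0.18 ± 0.17 (SE), the nearest to 0 among the members. Scaled on the miRNA rows they were 0.09 and 0.06, so no direction is given for miR-1981.

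Over the 11 tested rows the log2 change ran from -2.08 to 0.60 with a median of -0.69, against a median of -0.24 over 546 tested miRNA rows and -0.05 over 6539 tested features. Scaling on the miRNA rows raised the median of all tested miRNA rows to 0.0013 and that of the members to -0.46. At an adjusted p of 0.05 in edgeR's quasi-likelihood fit of all features, 4 of the 11 rows were lower: miR-6944-3p, miR-877-5p and both miR-3102 3p rows, which share reads. None of the members was higher, and at an unadjusted p of 0.05 the counts were 8 lower and 0 higher, beside 170 lower and 11 higher of 546 tested miRNA rows and 423 lower and 88 higher of 6539 tested features. The fit called 6.59% of the tested miRNA rows lower and 0.0% higher, and 0.795% of all tested features lower and 0.0153% higher. Because the members were picked with this contrast known, nothing is read from their count. The CPM of the groups did not overlap, with Dicer1-ifKO lower, in 9 of the 11 rows, as in 33.9% of all tested miRNA rows and 9.27% of all tested features. It did so with Dicer1-ifKO higher in 0 of the 11, in 2.01% of the tested miRNA rows and in 244 of 6539 tested features. The 0 is near these shares and is not read as a result. The range, the median and these counts over the 11 rows include miR-3102-5p.2-5p. The 4 calls depended on which libraries were fitted. Without Dicer1-ifKO replicate 2, 0 were left, and 1 of all tested features was called, against 53 with all libraries. The log2 change of miR-6944-3p was then -1.39. Its call was the 1 left without Dicer1-ifKO replicate 1, Dicer1-ifKO replicate 3 or WT replicate 2. Without WT replicate 1, 4 members were called, and without WT replicate 3, 3 were.

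**Figure D3:**
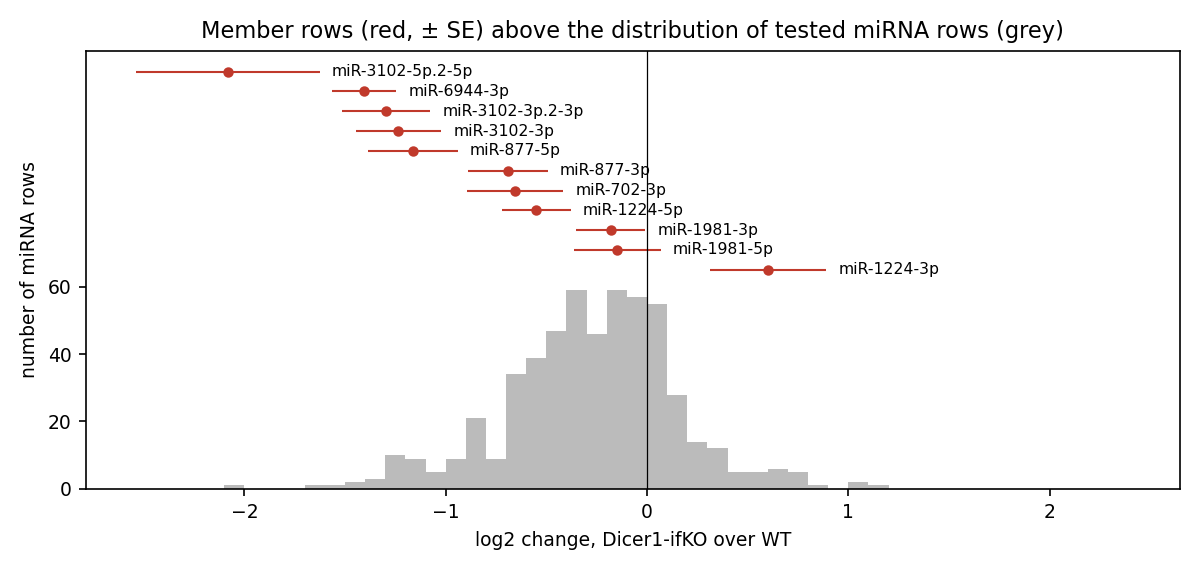
Log2 change, Dicer1-ifKO over WT, of the 11 tested member rows (red points, bars are ± SE) above a histogram of all 546 tested miRNA rows (grey, number of rows per bin). The members run from -2.08 for miR-3102-5p.2-5p to 0.60 for miR-1224-3p, and the histogram is centred below 0.

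The host genes offer a comparison at the same places, because the tables also count reads over whole transcript spans with their introns. These spans were almost empty outside the mirtrons. The Dbn1 span held 863 counts over the Dicer1-ifKO libraries and 2276 over the WT libraries, and miR-6944 accounted for 96.4% to 99.1% of them. After its removal 5, 9 and 10 counts were left in Dicer1-ifKO and 10, 12 and 6 in WT, replicates 1, 2 and 3, so that the groups overlapped. The edgeR log2 change of this remainder was -0.20 ± 0.42 (SE, adjusted p = 0.99). It changed sign without WT replicate 2 (log2 0.03) and when scaled on the miRNA rows (0.03).

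The Abcf1 span held 174, 247 and 215 counts in Dicer1-ifKO replicates 1, 2 and 3, and 319, 481 and 423 in WT replicates 1, 2 and 3. Only 3, 3 and 4 of these in Dicer1-ifKO and 5, 1 and 3 in WT were not miR-877. The spans of the other hosts were of the same kind: miR-1224 made up 97.9% of the Vwa5b2 span over all libraries, miR-702 94.1% of the Plod3 span and miR-1981 99.7% of the Mosc2 span. Their remainders of 0 to 7 counts per library, and that of Abcf1, were too few for the count filter.

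For Arhgef17 the remainder cannot be separated from the hairpin. The span held 107, 127 and 160 counts in Dicer1-ifKO replicates 1, 2 and 3, and 308, 356 and 231 in WT replicates 1, 2 and 3. With the largest row of each miR-3102 arm taken off, 27, 30 and 38 counts were left in Dicer1-ifKO and 56, 62 and 41 in WT. Those left may in full be reads of the inner 3p row. Their log2 change was -0.72 ± 0.23 (SE, edgeR adjusted p = 0.28). Of the 2 host remainders that could be tested, those of Arhgef17 and Dbn1, 0 passed in edgeR or DESeq2, and 1 had an unadjusted edgeR p under 0.05. The host spans as counted had log2 changes of -1.38 for Dbn1, -1.16 for Arhgef17 and -0.94 for Abcf1. At least 74.8% of the reads of these spans in every library lay in the mirtron rows, so the values do not measure the host mRNA. The remainders are also reads of small RNA libraries and do not measure it either.

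**Figure D4:**
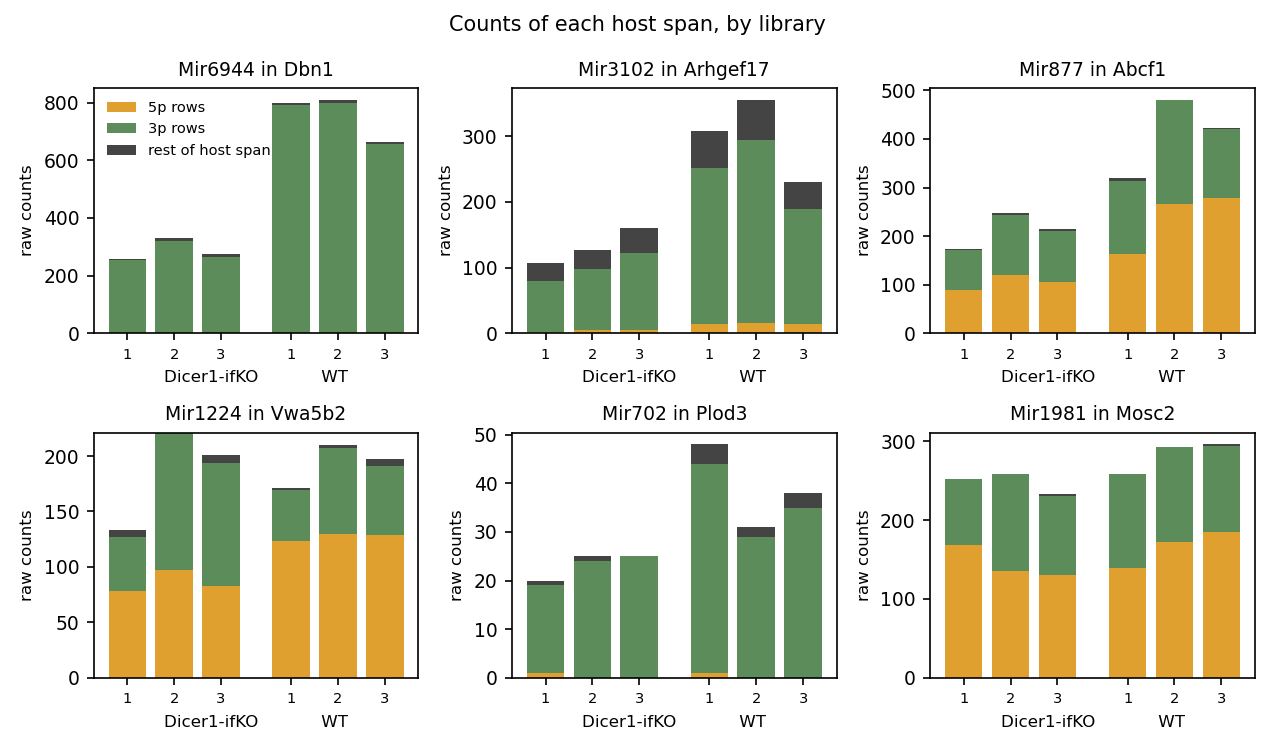
Raw counts of the 6 host spans by library (Dicer1-ifKO replicates 1 to 3 on the left, WT replicates 1 to 3 on the right of each panel), split into the 5p rows (orange), the 3p rows (green) and the rest of the span (dark grey), with the largest row taken per arm. The rest is 0 to 12 counts in all hosts but Arhgef17, where it is 27 to 62.

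Other miRNAs placed in short introns by the same annotation were mostly undetected. Of 150 further rows whose hairpin lay within an intron of up to 200 nt, with an end within 10 nt of a splice site, 66 had no count in any library and 14 were tested. Their log2 changes had a median of -0.18, and 0 were called lower or higher by edgeR. Among 219 tested rows in introns of any length of protein-coding genes, which include those 14, the median was -0.30 and 5 were called lower. Among 253 tested rows outside protein-coding genes, the median was -0.21 and 22 were called lower. miRNAs reported to be made without Drosha in other ways or from other introns (miR-320, miR-484, miR-1839, miR-664, miR-1982 and miR-668) gave 8 tested rows, with a median of -0.42. Of these, miR-484 and miR-1839-3p were called lower. Of 18 spans of genes of miRNA processing 9 were tested, with a median of -0.09 and 0 called in either direction by edgeR. The median is the value of Hspa8, whose span held 718018 counts over the libraries. What fills that span was not tested. The other tested spans were covered thinly, with 55 to 257 counts each. All these spans hold reads of small RNA libraries, so the values do not measure the mRNA of the genes.

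The profiles over the 6 libraries of the tested miRNAs outside the set were compared with that of miR-6944-3p. Likeness was the root mean square difference of log2 CPM after centring each row on its own mean, over 535 candidates without the member hairpins. Only 14 tested rows outside the members were placed as mirtrons, and 8 were listed as made without Drosha. The class of the nearest rows is therefore not read as a result. A centred profile holds the difference between the genotypes, and the nearest rows had log2 changes of -1.28 to -1.15. The nearest were miR-409-3p (0.18), miR-431-5p (0.18), miR-129b-3p (0.19), miR-129-5p (0.19) and miR-760-3p (0.20). miR-129b-3p and miR-129-5p lie on opposite strands of 1 place and share reads. miR-409-3p stood at 21.9 ± 2.35 CPM in Dicer1-ifKO and 51.0 ± 4.03 CPM in WT (SD, n = 3 each).

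The libraries held miRNAs listed for brain cell types, and no list was made to tell the hippocampus from other brain regions. The 5 neuronal miRNAs (miR-124-3p, miR-9-5p, miR-128-3p, miR-137-3p and miR-138-5p) were detected in all libraries and summed to 1114 to 1378 CPM in Dicer1-ifKO and 1342 to 1694 CPM in WT. The 5 rows for microglia and leukocytes summed to 200.3 to 226 CPM in Dicer1-ifKO and 162 to 199 CPM in WT, and the 3 rows for oligodendrocytes to 240 to 329 CPM in Dicer1-ifKO and 200.2 to 320 CPM in WT. The sums were 3751 to 4185 CPM in Dicer1-ifKO and 4544 to 5486 CPM in WT for 2 astrocyte rows, and 455 to 617 CPM in Dicer1-ifKO and 359 to 589 CPM in WT for 4 endothelial rows. They were 97.2 to 116 CPM in Dicer1-ifKO and 109 to 120.1 CPM in WT for 3 erythrocyte rows, and 43.3 to 69.9 CPM in Dicer1-ifKO and 36.9 to 54.9 CPM in WT for 6 choroid plexus rows. Of 4 liver and striated muscle rows, miR-133a-3p reached 3.51 CPM and the others no more than 0.108 CPM in any library. The astrocyte and microglial ranges did not overlap between the genotypes, but sums can rest on 1 row. In the list for microglia and leukocytes miR-150-5p held 45588 counts over the libraries, miR-142-3p 103 and miR-223-3p 50. In the choroid plexus list miR-34c-5p held 13001 and the next row, miR-200b-3p, 504. Differences in these sums are not read as differences in cell types. No row of these lists was at 0 in all libraries. Their part in the member differences was not tested. WT replicate 1 stood apart with 0.101% of its counts in 5S rRNA rows, against 0.0499%, 0.0446% and 0.0568% in the Dicer1-ifKO libraries and 0.0311% and 0.0441% in the other WT libraries. Without it the log2 change of miR-6944-3p was -1.39, that of miR-3102-3p -1.23, that of miR-877-5p -1.39, that of miR-1224-5p -0.60 and that of miR-1224-3p 0.42.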

How the data were processed

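Small RNA libraries were made from pooled total hippocampal RNA with Illumina's TruSeq small RNA kit, per the labels' protocols. The design text speaks of 12 mice per genotype, whereas 3 pools of 3 hold 9. The raw values the authors deposited are read counts of each feature. Their deposited normalized signal equals the count times a constant per library, and those constants served as an alternative scaling. Among the names in the submitters' processing notes are BWA, CASAVA 1.8.2, DESeq2, SAMtools 0.1.18 and the builds mm10 and GRCm38, without roles. How reads were counted, by strand or at several places, is not stated there. No other miRNA and no opposite-strand feature lies at the member hairpins, and each member name has 1 row.

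Summed counts were 55101387 to 77428956 per library, with reads entered once per overlapping feature. Rows of a gene with the same counts in all libraries were merged, which removed 18080. R 4.3.3 with edgeR 4.0.16 fitted all features (filterByExpr per genotype at 10 counts, TMM, robust glmQLFit, two-sided glmQLFTest), and p-values were adjusted by Benjamini-Hochberg over 6539 features, with calls at 0.05. The SE is the log2 change divided by the root of its F statistic. p-values measure the spread between these pools. For host remainders, the largest row per arm was subtracted from the span with the most counts, and all features were refitted (6535 tested). Libraries of 1 genotype differed by at least 22.0 times counting noise (chi-square over its degrees of freedom, miRNA rows). Likeness used log2 CPM with a prior count of 2. Alternatives were other scalings and count filters, DESeq2 1.42.0, miRNA rows alone, a replicate block and leaving out each library. Further ones were joining overlapping member rows and keeping only the larger row of each miR-3102 arm. The fit was tested on simulated data. By rule the text names every member, the hosts, Dicer1 and the 5 rows most like miR-6944-3p. Rows of the other lists that it names (miR-484, miR-1839-3p, miR-133a-3p, miR-7068 and miR-7080) were picked after their values were seen. So were Hspa8, miR-150-5p, miR-142-3p, miR-223-3p, miR-34c-5p, miR-200b-3p, miR-126a and miR-126b. Members and lists were chosen with earlier results of these data known.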

Additional observations from a re-analysis of the deposited data

How the results depend on the processing

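Directions of the members held except for miR-1981. Of 184 member log2 values over 17 alternatives, 9 moved by more than the replicate spread, and the signs of all members but miR-1981-5p and miR-1981-3p were kept. The 184 include values that could hardly move. Joining rows that share 10 nt repeated the main fit, and keeping the larger miR-3102 rows left the other counts as they were. The log2 change ranged from -1.43 to -1.18 for miR-6944-3p, from -1.40 to -1.02 for miR-3102-3p, from -1.39 to -0.90 for miR-877-5p, from -0.60 to -0.31 for miR-1224-5p, from 0.42 to 0.87 for miR-1224-3p and from -0.38 to 0.09 for miR-1981-5p. The counts of calls depended on the setting. On library totals alone 23 features, 16 miRNA rows and 1 member were called, and with TMM over the miRNA rows 12 features, 8 miRNA rows and 1 member, against 53, 36 and 4. With the replicate number as a block 6 features, 3 miRNA rows and 1 member were called. No pairing by number was seen, as deviations of same-numbered libraries correlated at -0.05, 0.26 and -0.26 over the miRNA rows. Those of differently numbered libraries of the 2 genotypes correlated at -0.37 to 0.43. With 3 libraries per genotype these values do not settle whether the numbers mark something shared. In each of these 3 settings the member was miR-6944-3p. Leaving out 1 library gave 1 to 143 features, 1 to 70 miRNA rows and 0 to 4 members, lowest without Dicer1-ifKO replicate 2 and highest without WT replicate 1. With the miRNA rows fitted alone, 36 of them were called lower and 11 higher, against 36 and 0. The cause was not tested. No alternative gave a called host remainder (edgeR and DESeq2). Joining member rows that share 10 nt changed nothing, as no such pair exists. Keeping only the larger row of each miR-3102 arm and using the authors' constants, both chosen after seeing the data, gave 3 and 4 called members. The first of these dropped miR-3102-3p.2-3p, which was 1 of the 4 calls, so its 3 follows from the drop. At 1 to 16 counts per library, miR-3102-5p.2-5p is limited by depth, as are the host remainders, of which 2 of 6 could be tested.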

Other observations

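Among the other miRNAs in short introns, the arms of miR-7068 differed unequally between the genotypes. This miRNA and miR-7080 were singled out after their values were seen. The 3p row of miR-7068, from an intron of Cherp, had 12, 21 and 14 counts in Dicer1-ifKO replicates 1, 2 and 3, and 31, 41 and 36 in WT replicates 1, 2 and 3 (log2 -1.19 ± 0.25, SE). Its 5p row had 19, 22 and 28 counts in Dicer1-ifKO and 20, 17 and 15 in WT (log2 0.43 ± 0.26). The CPM of the groups did not overlap for either arm, and neither was called by edgeR. The 5p share of miR-7068 averaged 59.7% in Dicer1-ifKO and 32.6% in WT, a difference of 27.1 percentage points that ranked 1 by size among the 138 miRNAs, ahead of miR-1224. miR-7080-5p, from an intron of Cpne7, had 3, 4 and 8 counts in Dicer1-ifKO and 12, 17 and 15 in WT. It passed the count filter only through WT, so a difference between its arms is not read from it. The opposite arm, miR-7080-3p, was the most abundant of the further rows, with 110, 138 and 134 counts in Dicer1-ifKO and 120, 160 and 120 in WT. Their log2 changes were -1.51 ± 0.42 and -0.05 ± 0.18 (SE, n = 3 each), and neither was called.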
